A study of Rattus norvegicus with 24 samples.

Results

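Thyroid hormone handling was followed in 8 genes on all 24 arrays: Slco1c1 and Crym, which carry or bind the hormone, Dio2, which activates it, the receptors Thra and Thrb, and the hormone-responsive genes Klf9, Hr and Nrgn. A gene's probe sets were those to which the platform annotation gave its symbol alone. The 8 genes, of 14217 with such a probe set, had 15 probe sets: 4 for Thrb, 3 each for Thra and Klf9 and 1 for each of the others.
The series compares an environmental and a genetic rat model of attention deficit hyperactivity disorder. SDpcb rats are Sprague-Dawley rats exposed to polychlorinated biphenyls (PCB), a class of persistent chlorinated industrial compounds, and SD rats are Sprague-Dawley controls. SHR is the spontaneously hypertensive rat, an inbred strain, and WKY is its Wistar-Kyoto control. All 28 rats were male and 55 to 65 days old: 4 SDpcb, 8 SD, 8 SHR and 8 WKY. The compounds, dose, route and time of exposure were not given in the sources used here, nor whether an array held RNA of 1 rat or of several. Each group gave 1 array for each of 6 regions: prefrontal cortex, hippocampus, dorsal striatum, ventral striatum, substantia nigra with ventral tegmental area (substantia nigra/VTA) and cerebellar vermis. No region had a replicate within a group, and the 6 regions of a group came from the same set of rats, with no record here of which rats gave which array. P-values for differences between strain groups therefore measure agreement between regions, not between animals. Those for differences between regions measure agreement between the 4 strain groups, again not between animals.

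Thyroid hormone reaches neurons in steps. Transporters at brain vessels and astrocytes, Slco1c1 among them, take up thyroxine, the deiodinase Dio2, mainly in astrocytes, converts it to the active triiodothyronine, and Crym binds triiodothyronine in the cytosol of neurons. Triiodothyronine then acts through the nuclear receptors Thra and Thrb, which switch genes such as Klf9, Hr and Nrgn. PCBs are known to lower circulating thyroxine in rats.

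The tissue labels were checked against genes that mark each region. The cerebellar transcripts Gabra6 and Pcp2 were bright on all vermis arrays, but the WKY prefrontal cortex array also gave a Gabra6 signal of 2297 and a Pcp2 signal of 668, while the other 3 prefrontal cortex arrays gave at most 97.0 for Gabra6. The dopamine transporter Slc6a3 had a signal of 955 on the SDpcb substantia nigra/VTA array, against 7789 on the SD array of that region, and 8411 in SHR and 5916 in WKY. Pmch, a hypothalamic peptide gene chosen here after its values were seen, was 13017 on that SDpcb array, against 2447 in SD, and 9765 in SHR and 1038 in WKY. For the member and list counts, values without these arrays are given where they changed a call; regional levels include them. The median signal of an array lay between 89.0 and 126 in SDpcb, between 131 and 184 in SD, between 132 and 178 in SHR and between 109 and 153 in WKY. The SDpcb arrays thus had lower signals among dim probe sets at an equal scaled mean, and the part of this in the results for dim genes was not tested. In whole tissue, fewer cells of a type and less RNA per cell cannot be told apart.

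Signals are MAS5 intensities, the linear brightness of a probe set scaled to an equal trimmed mean on every array. Differences are on the scale log2(signal + 1), as the mean of the 6 within-region differences ± the standard error (SE) of a limma fit with strain group and region as terms. A gene was called at a Benjamini-Hochberg adjusted p under 0.05 over 15521 probe sets. It was represented by its brightest probe set. Levels are not compared between genes, since a probe set's brightness depends on its probes. Of the 15 probe sets, 8 passed the filter on mean signal, covering 6 genes. Dio2 and Hr did not pass it, so their values come from a fit without the filter and carry no call.

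In SDpcb against SD rats, 0 of the 6 tested genes passed the limma test. Over all 9009 genes tested, 28.3% were called, 14.8% higher and 13.5% lower. Slco1c1 alone had an unadjusted p under 0.05, and by an exact sign-flip permutation over the 6 regions (two-sided, smallest possible p 0.03125) 0 of the 6 did. Differences between regions were wide: in vermis Slco1c1 and Crym were higher in SDpcb by 1.91 and 2.09 on the log2 scale while Nrgn fell by 3.61. None of the 6 differed in the same direction in all 6 regions, where 20.3% of all genes tested did. The median of the 6 differences was 0.095, against 0.0032 over all genes. These directions are relative to the MAS5 scaling: centring each array on its median moved the median of all tested probe sets to 0.71 and called 5 of the 6 genes higher, where 74.3% of all probe sets were called. Klf9 was then 0.47, below that median.

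**Figure D1:**
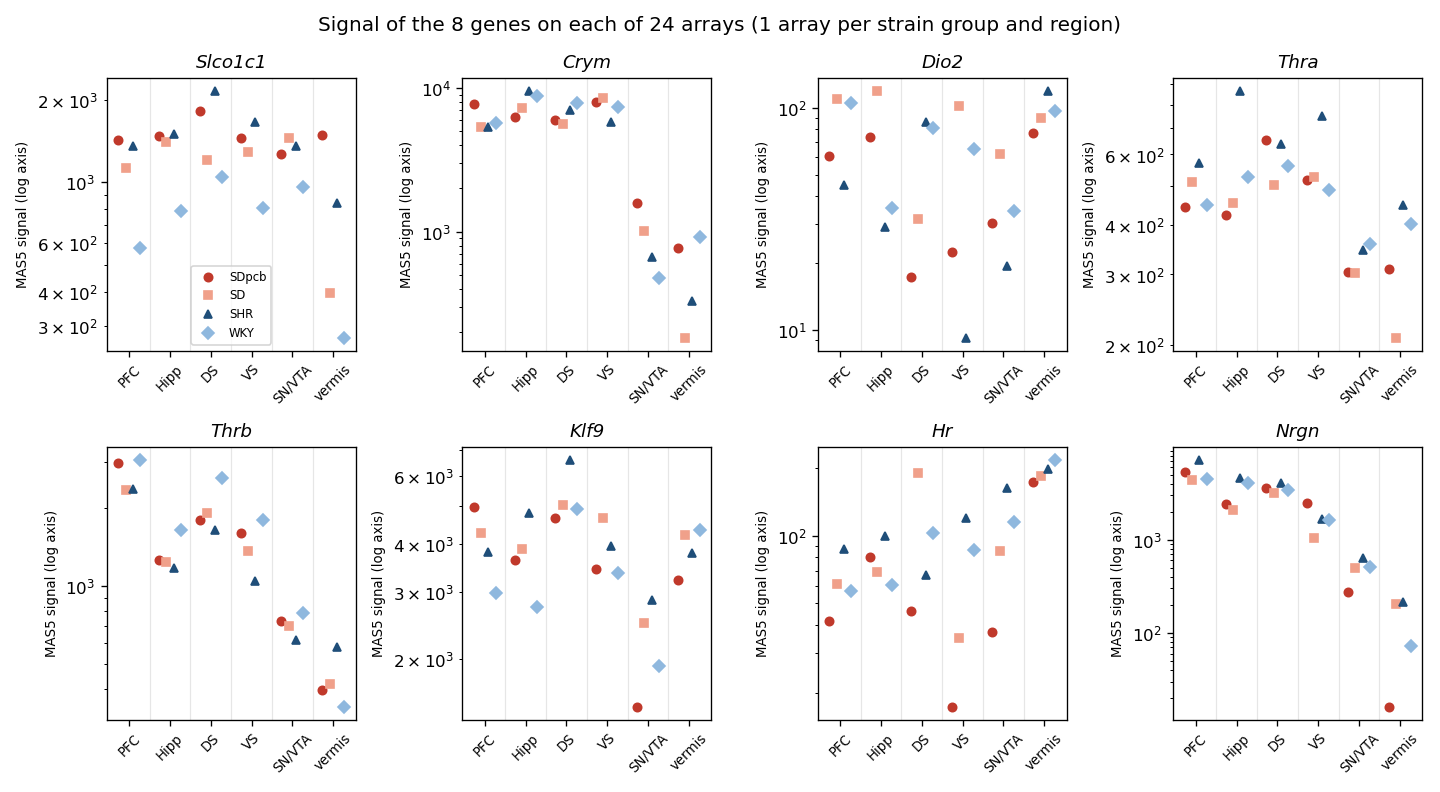
MAS5 signal (log axis) of the brightest probe set of each of the 8 genes in each region, 1 point per array, in SDpcb, SD, SHR and WKY rats (PFC prefrontal cortex, Hipp hippocampus, DS dorsal striatum, VS ventral striatum, SN/VTA substantia nigra with ventral tegmental area). Crym, Thrb and Nrgn were lower in substantia nigra/VTA and vermis than in forebrain in every group, and Slco1c1 was lowest in WKY in each of the 6 regions.

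Upstream sequences of 5 of the 8 genes (Thra, Thrb, Dio2, Klf9 and Nrgn) were available from RefSeq, build GRCr8. Those of Klf9, the responsive gene whose difference between the models was called, and of Thrb and Nrgn, whose levels ran most alike over the arrays, are shown as the 250 bases before the annotated start. They are chr1:230126396-230126645 on the plus strand for Klf9, chr15:10461447-10461696 on the minus strand for Thrb and chr8:45452418-45452667 on the minus strand for Nrgn. Capitals mark GGGCGG on either strand, the core of a GC box.
Klf9: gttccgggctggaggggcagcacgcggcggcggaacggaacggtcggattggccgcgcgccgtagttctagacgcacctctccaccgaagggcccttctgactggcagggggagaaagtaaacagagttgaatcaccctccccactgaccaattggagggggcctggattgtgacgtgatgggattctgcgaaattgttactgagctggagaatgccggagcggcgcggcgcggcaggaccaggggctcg
Thrb: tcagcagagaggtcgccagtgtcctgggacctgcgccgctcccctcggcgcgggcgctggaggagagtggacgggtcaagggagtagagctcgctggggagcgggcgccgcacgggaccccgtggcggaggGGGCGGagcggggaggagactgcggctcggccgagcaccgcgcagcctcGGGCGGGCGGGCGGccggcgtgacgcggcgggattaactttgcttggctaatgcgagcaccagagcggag
Nrgn: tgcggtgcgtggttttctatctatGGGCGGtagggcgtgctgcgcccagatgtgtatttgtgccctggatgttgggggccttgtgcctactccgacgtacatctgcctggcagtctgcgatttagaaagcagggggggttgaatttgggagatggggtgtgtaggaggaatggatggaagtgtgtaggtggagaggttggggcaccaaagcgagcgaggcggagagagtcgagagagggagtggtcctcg
The 250 bases held 4 such matches for Thrb, 3 of them overlapping, 1 for Nrgn and 0 for Klf9. Of 33469 promoter windows of this length, 30.5% held at least 1. The half-site AGGTCA, the base motif that thyroid hormone receptors recognise, was found on neither strand in the windows of any of the 5 genes (Thra has 2), and 14.1% of all windows held it. A pair of half-sites in the same direction spaced by 4 bases was in 0.00299% of all windows. TATAAA was found in Dio2 alone of the 5, against 12.9% of all windows.

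Slco1c1 encodes the transporter OATP1C1, which takes up thyroxine at the blood-brain barrier. In SDpcb rats its signal was 1431 in prefrontal cortex, 1475 in hippocampus, 1825 in dorsal striatum, 1446 in ventral striatum, 1263 in substantia nigra/VTA and 1487 in vermis, against 1129.5, 1406, 1209, 1285, 1450.2 and 396 in the same regions of SD rats. It was higher in 5 of 6 regions, and the ranges of the groups overlapped. The difference was 0.48 ± 0.19 (adjusted p = 0.0573), with a 95% interval on 15 residual degrees of freedom of 0.075 to 0.89. The vermis carried most of it: the mean of the other 5 regions was 0.19. Without the SDpcb substantia nigra/VTA array the difference was 0.58 with an adjusted p of 0.0274 in limma, which is a call.
In SHR the Slco1c1 signal was 1352 in prefrontal cortex, 1499.8 in hippocampus, 2155 in dorsal striatum, 1665 in ventral striatum, 1353 in substantia nigra/VTA and 840.1 in vermis, against 576, 784, 1048, 808, 962 and 270.5 in WKY. It was higher in SHR in 6 of 6 regions, by 0.49 to 1.63. The mean difference was 1.06 ± 0.19 (adjusted p = 3.35e-04), a ratio of 2.09. Against SD, WKY was lower in 6 of 6 regions, by 0.64 ± 0.19 (adjusted p = 0.0226), and this call ended without the WKY prefrontal cortex array (adjusted p = 0.0577), without the prefrontal cortex, hippocampus or ventral striatum arrays (adjusted p between 0.0760 and 0.0935), with the array median as a covariate (adjusted p = 0.658) and after median centring (-0.21, adjusted p = 0.359). The WKY arrays serve in both comparisons, and the SD arrays in both SDpcb minus SD and WKY minus SD. The SDpcb minus SD difference minus the SHR minus WKY difference was -0.58 ± 0.27 for Slco1c1 (adjusted p = 0.0867).
Vessel and blood markers were read beside Slco1c1. The summed signal of 9 endothelial markers was 7857 on the SDpcb vermis array, against 5407 on the SD one, and 6979 in SHR against 4151 in WKY. Over the 6 regions this sum ran from 7857 to 11373 in SDpcb and from 5407 to 12354 in SD, and from 6979 to 13602 in SHR and from 4151 to 10838 in WKY. Of the 7 endothelial markers tested, 4 were higher and 0 lower in SDpcb, where 14.8% of all genes were higher. In SHR 6 were higher and 0 lower, where 20.7% of all genes were higher. In WKY against SD, where Slco1c1 was called lower, 2 were lower, 0 higher and 5 not called (7.75% of all genes lower). The correlations of the 7 markers with Slco1c1 over the 24 arrays, which share the regions, ran from 0.36 to 0.75 (Pearson r, median 0.67). The hemoglobin gene Hbb was higher in SDpcb (1.06 ± 0.12, adjusted p = 1.71e-06), higher in SHR (1.71 ± 0.12, adjusted p = 1.84e-09) and lower in WKY than in SD (-0.93 ± 0.12, adjusted p = 1.53e-05). The summed signal of 2 blood markers ran from 5763 to 14873 in SDpcb and from 2978 to 5675 in SD, and from 4705 to 10917 in SHR and from 1232 to 3363 in WKY. None of these markers was at 0, and their part in the Slco1c1 difference was not tested.

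Crym encodes mu-crystallin, the cytosolic protein that binds triiodothyronine. In SDpcb rats its signal was 7783 in prefrontal cortex, 6327 in hippocampus, 6025 in dorsal striatum, 7984 in ventral striatum, 1589.6 in substantia nigra/VTA and 772 in vermis, against 5331 in prefrontal cortex, 7245 in hippocampus, 5597 in dorsal striatum, 8484 in ventral striatum, 1010.4 in substantia nigra/VTA and 181 in vermis of SD rats. SDpcb was higher in 4 of the 6 regions, by most in vermis, and the ranges overlapped. The difference was 0.52 ± 0.28 (adjusted p = 0.162), with a 95% interval of -0.073 to 1.11. Without vermis the mean of the 5 differences was 0.20.
The vermis value had no fixed order of strains. It was 331 in SHR against 912 in WKY, a difference of -1.46 in the opposite direction to SDpcb minus SD. The summed signal of 7 excitatory forebrain neuron markers, some of which cerebellar neurons also express, was 33378 on the SDpcb vermis array. It was 36788 on the SD vermis array. In SDpcb the sum was 35669 in prefrontal cortex and 24402 in dorsal striatum, so it does not set forebrain apart from vermis. Over the 6 regions the Crym difference was -0.24 ± 0.28 in SHR minus WKY (adjusted p = 0.526) and 0.32 ± 0.28 in WKY minus SD (adjusted p = 0.459).

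Dio2, the deiodinase that makes triiodothyronine in brain, was dim on all arrays. In SDpcb rats its signal was 60.6 in prefrontal cortex, 73.9 in hippocampus, 17.3 in dorsal striatum, 22.5 in ventral striatum, 30.2 in substantia nigra/VTA and 77.0 in vermis, against 109.5, 119.5, 31.7, 102, 61.8 and 89.9 in SD rats. It was lower in SDpcb in 6 of 6 regions, and the ranges of the groups overlapped. The mean difference was -0.96 ± 0.51 in the fit without the filter, with no call. All 31042 probe sets together had a median of -0.37 in that fit, so dim probe sets as a whole were lower in SDpcb. The sign of the Dio2 difference turned after quantile normalization (0.14) and after cyclic loess normalization (0.16), and after median centring the difference was -0.23.
Astrocyte markers, from the cells that make most Dio2, moved too: 0 of 10 were higher and 7 lower in SDpcb (14.8% and 13.5% of all genes). In WKY against SD rats, 7 of these markers were also lower and 0 higher, where 7.75% of all genes were lower. Their summed signal ran from 57354 to 102295 in SDpcb and from 80173 to 109224 in SD rats, with none of the 10 at 0, and their part in the Dio2 values was not tested. In SHR the Dio2 signal ran from 9.16 to 119 (median 37.1), and in WKY from 34.2 to 105 (median 73.2). It was lower in SHR in 4 of 6 regions (-0.77 ± 0.51, not tested).

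Neither receptor gene was called between SDpcb and SD rats. Thra, which encodes the receptor most abundant in brain, had signals of 444 in prefrontal cortex, 424 in hippocampus, 652 in dorsal striatum, 518 in ventral striatum, 304 in substantia nigra/VTA and 309.7 in vermis of SDpcb rats, against 512, 454, 502, 526, 303 and 208 in SD rats. The difference was 0.11 ± 0.15 (adjusted p = 0.626), and its 95% interval, -0.21 to 0.42, spans ratios of 0.863 to 1.34. Thrb had signals of 2973, 1252, 1799, 1602, 734 and 397 in the same order of regions in SDpcb rats, against 2338, 1234, 1910.1, 1366, 698 and 417 in SD rats. In every region but prefrontal cortex and ventral striatum the Thrb pair lay within 0.1 on the log2 scale. The mean difference was 0.086 ± 0.139 (adjusted p = 0.674), with an interval of -0.21 to 0.38. The second tested probe set of each receptor lay on the other side of 0, also without a call. For Thra it gave -0.14 ± 0.22 (adjusted p = 0.666 in limma) and for Thrb -0.22 ± 0.29 (adjusted p = 0.602). That Thrb probe set differed widely between regions, from -1.34 in vermis to 0.60 in hippocampus.
Between SHR and WKY the receptor values lay on opposite sides of 0, neither past the threshold. Thra was 0.33 ± 0.15 higher in SHR (adjusted p = 0.0938), in 5 of 6 regions. The second Thra probe set gave 0.99 ± 0.22 (adjusted p = 0.00208, higher in 6 of 6 regions), so the probe sets of this gene disagree on the call. The second probe set averaged 365 ± 127 in SHR and 189 ± 70.2 in WKY (SD over 6 regions). For that probe set the SDpcb minus SD difference was also below the SHR minus WKY one (-1.13 ± 0.31, adjusted p = 0.00649). Thrb was lower in SHR in 5 regions, by 0.34 to 0.78, and higher in vermis, by 0.77, where the signals were 582 in SHR and 340 in WKY. Its mean difference was -0.31 ± 0.14 (adjusted p = 0.0897). Without the vermis arrays it was -0.53 with an adjusted p of 7.29e-04. The second tested Thrb probe set gave -0.18 ± 0.29 with all arrays (adjusted p = 0.678 in limma). It was higher in SHR in 2 of 6 regions, hippocampus (0.37) and vermis (0.98).

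**Figure D2:**
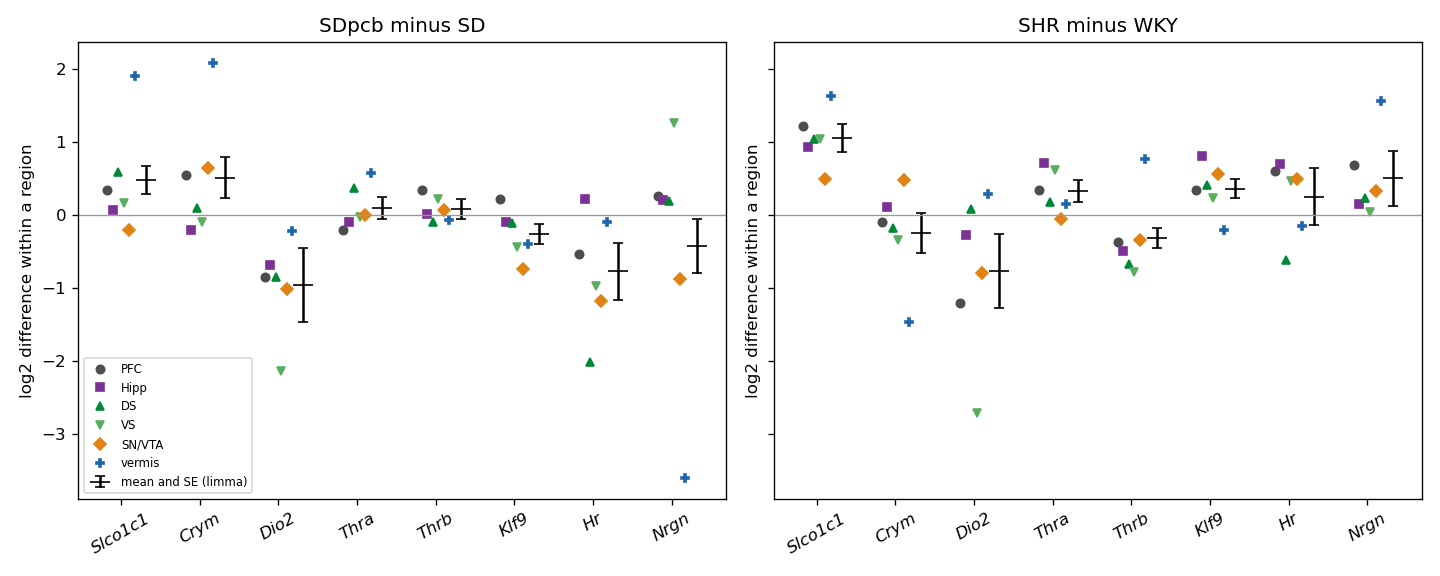
Log2 differences of the 8 genes within each region, 1 point per region, for SDpcb minus SD (left) and SHR minus WKY (right), with the mean and its limma SE beside them. Slco1c1 is above 0 in all 6 regions in SHR minus WKY, Dio2 is below 0 in all 6 in SDpcb minus SD, and the vermis points of Slco1c1, Crym and Nrgn lie farthest from 0 in SDpcb minus SD.

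Klf9 encodes a zinc finger transcription factor that triiodothyronine induces in neurons. In SDpcb rats its signal was 4972 in prefrontal cortex, 3637 in hippocampus, 4655 in dorsal striatum, 3428 in ventral striatum, 1502 in substantia nigra/VTA and 3216 in vermis, against 4249.7, 3866, 5031, 4655, 2491 and 4223 in SD rats. It was lower in SDpcb in 5 of 6 regions and higher in prefrontal cortex. The difference was -0.26 ± 0.13 (adjusted p = 0.146), with an interval of -0.54 to 0.026. Without the prefrontal cortex arrays it was -0.35 and was called (adjusted p = 0.0466). Without the SDpcb substantia nigra/VTA array it was -0.16 (adjusted p = 0.382).
In SHR the Klf9 signal was 3804 in prefrontal cortex, 4798 in hippocampus, 6608 in dorsal striatum, 3936 in ventral striatum, 2851 in substantia nigra/VTA and 3787 in vermis, against 2985, 2729.6, 4934, 3349, 1926 and 4338 in WKY rats. It was higher in SHR in 5 of 6 regions and lower in vermis. The mean difference was 0.36 ± 0.13 (adjusted p = 0.0386). This call was narrow: it ended without the WKY prefrontal cortex array (0.31, adjusted p = 0.111) and without either striatal region, the hippocampus or the substantia nigra/VTA (adjusted p between 0.0757 and 0.182). The 2 models differed for Klf9: SDpcb minus SD was lower than SHR minus WKY in 6 of 6 regions, by 0.62 ± 0.19 (adjusted p = 0.0112). Over all genes 39.9% passed that test of the difference. Leaving out the substantia nigra/VTA arrays, among them the SDpcb array with low Slc6a3, ended this call (-0.49, adjusted p = 0.0596). After centring on array medians it turned to 0.44 (adjusted p = 0.0539), where the median of all probe sets shifted by 1.06, and Klf9 in SHR minus WKY was 0.028.

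Hr encodes hairless, a nuclear receptor corepressor that thyroid hormone induces in rat brain. Its signal ran from 17.2 to 173 (median 44.1) in SDpcb rats and from 34.9 to 190.3 (median 77.2) in SD rats, with overlapping ranges. It was lower in SDpcb in 5 of 6 regions (-0.76 ± 0.39 in the fit without the filter, with no call). As for Dio2, the sign turned after quantile normalization (0.26) and cyclic loess (0.13). For Hr the sign turned with the array median as a covariate too (0.62). In SHR the Hr signal ran from 66.8 to 197 (median 109.6) and in WKY from 56.9 to 218 (median 94.5), and the difference was 0.25 ± 0.39.

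Nrgn encodes neurogranin, a calmodulin-binding protein of dendritic spines whose gene responds to thyroid hormone in rat forebrain. In SDpcb rats its signal was 5314 in prefrontal cortex, 2411 in hippocampus, 3637 in dorsal striatum, 2509 in ventral striatum, 273 in substantia nigra/VTA and 15.9 in vermis, against 4417, 2076, 3188, 1048 in the 4 forebrain regions, 501 in substantia nigra/VTA and 205 in vermis of SD rats. It was higher in SDpcb in all 4 forebrain regions and lower in the other 2. The mean difference was -0.43 ± 0.37 (adjusted p = 0.408), and without vermis it was 0.21. The vermis signal of 15.9 was far below the filter of 116 that a probe set's mean had to reach, and its level there had little precision.
The difference within the striatum was set against that in the other 4 regions, since the striatum is a main site of study in models of this disorder. This term was 1.72 ± 0.72 for Nrgn (unadjusted p = 0.0258, adjusted p = 0.924 in limma), and without the vermis arrays, a setting chosen after seeing the data, it was 0.86 ± 0.36 (adjusted p = 0.820). None of the 6 genes passed it, 1 had an unadjusted p under 0.05, and 0.00% of all genes were called. In SHR, Nrgn was higher than in WKY in 6 of 6 regions, by 0.048 to 1.57 (mean 0.50 ± 0.37, adjusted p = 0.310).

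For SHR minus WKY as a whole, 2 of the 6 tested genes were called, Slco1c1 and Klf9, both higher, where 33.7% of all genes were called, 20.7% higher and 13.0% lower. A count of 2 in 6 is near that background. Slco1c1 and Nrgn, 2 of 6, had the same direction in all 6 regions, and 33.6% of all genes did. The WKY minus SD comparison called 1 of 6, Slco1c1, against 16.9% of all genes. The difference of the models called 1 of 6, Klf9, against 39.9% of all genes.

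The same genes were read across regions. Each region was set against the mean of the other 5 over the 4 strain groups, and a call needed an adjusted p under 0.05 together with a size of 1 or more on the log2 scale. Of 36 pairs of gene and region, 14 were called, 8 higher and 6 lower, in 4 of the 6 genes. The count was also 14 without the SDpcb substantia nigra/VTA array and without the WKY prefrontal cortex array. Of all genes 19.6% were called in at least 1 region. Called genes were 3 of 6 higher in prefrontal cortex (2.68% of all genes), 2 of 6 in hippocampus (1.99%), 2 of 6 in dorsal striatum (3.11%) and 1 of 6 in ventral striatum (1.65%). In substantia nigra/VTA 2 of 6 were lower (3.31% of all genes) and in vermis 4 of 6 (9.60%). The contrasts of a gene share the same region means, so its calls are not independent: a low vermis raises the others. Crym was called higher in every forebrain region and lower in substantia nigra/VTA and vermis.

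**Figure D3:**
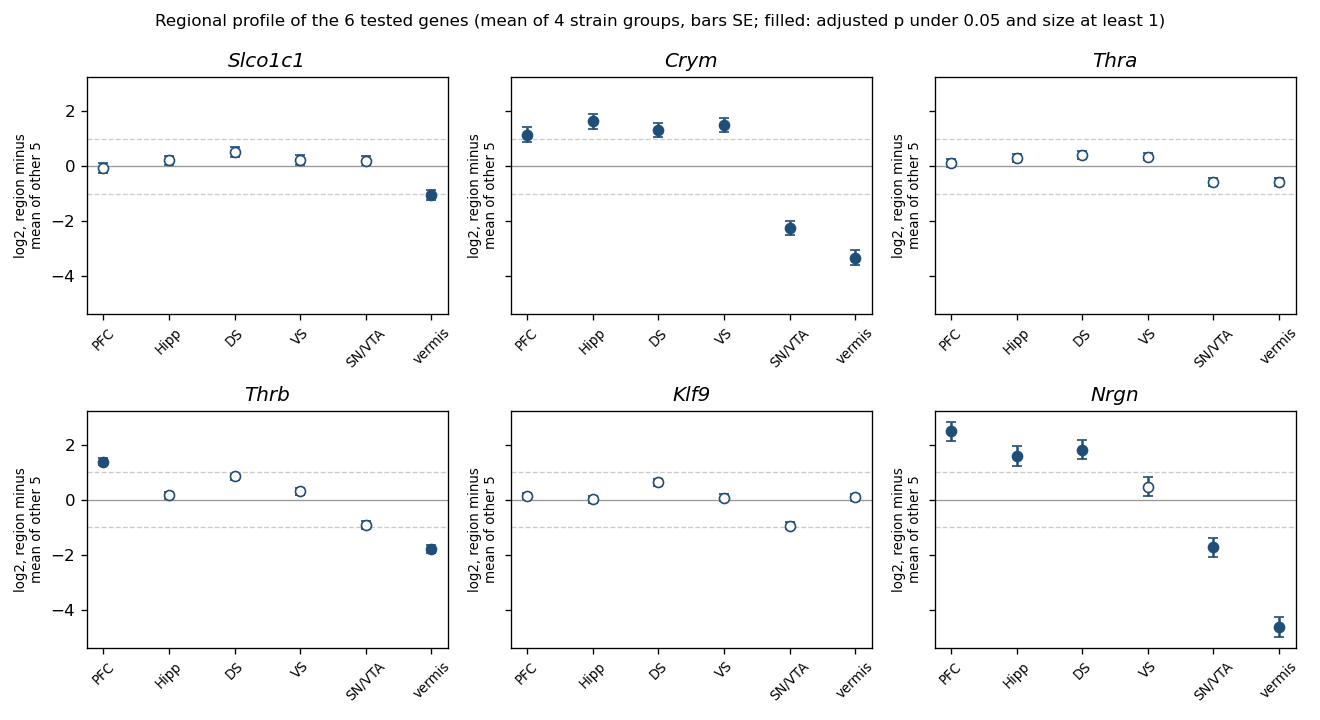
Log2 difference between a region and the mean of the other 5, as the mean of 4 strain groups with its limma SE, for the 6 tested genes; filled points were called (adjusted p under 0.05 and a size of 1 or more, dashed lines). Crym, Nrgn and Thrb fall toward substantia nigra/VTA and vermis, and Thra and Klf9 stay within 1 of 0.

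Nrgn spanned the widest range. Its mean signal over the 4 arrays of a region was 5356 ± 1313 in prefrontal cortex, 3575 ± 360.0 in dorsal striatum, 3287 ± 1228 in hippocampus, 1719 ± 601 in ventral striatum, 481 ± 153 in substantia nigra/VTA and 128 ± 99.2 in vermis (SD, n = 4), a 42.0-fold span. The steps between the 4 forebrain regions did not pass the test (adjusted p from 0.295 to 0.861), while those from ventral striatum to substantia nigra/VTA (1.83 ± 0.45, adjusted p = 0.00488) and from there to vermis (2.41 ± 0.45, adjusted p = 1.67e-04) did.
Crym had 8001 ± 1484 in hippocampus, 7410 ± 1153 in ventral striatum, 6635 ± 1036 in dorsal striatum and 6046 ± 1171 in prefrontal cortex, whose steps did not pass the test. Its signal was 934 ± 490.0 in substantia nigra/VTA, a step of 2.82 ± 0.34 (adjusted p = 9.32e-07), and 549 ± 349 in vermis (a further 0.89 ± 0.34, adjusted p = 0.0372).
Thrb was highest in prefrontal cortex, with 2686 ± 386, then 1987 ± 422 in dorsal striatum, 1453 ± 324 in ventral striatum, 1325 ± 214 in hippocampus, 708 ± 69.5 in substantia nigra/VTA and 434 ± 104 in vermis. The step from hippocampus to substantia nigra/VTA (0.90 ± 0.17, adjusted p = 4.31e-04) and that to vermis (0.73 ± 0.17, adjusted p = 0.00141) passed, and the steps above them did not. The second tested Thrb probe set was low in substantia nigra/VTA (70.2 ± 22.7) but not in vermis. Its signal was 193 ± 97.8 in vermis and 166 ± 33.0 in hippocampus. Vermis minus the other 5 regions was -0.040 ± 0.277 for it (adjusted p = 0.920 in limma). Thra was flatter, from 588 ± 70.2 in dorsal striatum to 328 ± 28.7 in substantia nigra/VTA. Its one passing step lay between prefrontal cortex and vermis (0.58 ± 0.18, adjusted p = 0.0130). The second Thra probe set was called lower in substantia nigra/VTA than in the other 5 regions (-1.02 ± 0.21, adjusted p = 5.61e-04 in limma).
Slco1c1 ran from 1559 ± 520 in dorsal striatum to 748 ± 550 in vermis. The steps among its 5 other regions did not pass the test, and the step down to vermis was 0.81 ± 0.23 (adjusted p = 0.00735). Klf9 ran from 5307 ± 882 in dorsal striatum to 2193 ± 597 in substantia nigra/VTA, and the step down to that region (0.79 ± 0.16, adjusted p = 9.21e-04) was the only one that passed. Among the dim genes, Dio2 averaged from 95.7 ± 17.6 in vermis to 36.4 ± 18.1 in substantia nigra/VTA. Hr averaged from 193 ± 19.1 in vermis to 61.7 ± 18.8 in prefrontal cortex, and on all 4 vermis arrays it exceeded the signal in prefrontal cortex, hippocampus, ventral striatum and substantia nigra/VTA.
Over the 24 arrays, Thrb and Nrgn had a Pearson r of 0.90 and Thrb and Crym one of 0.82. After each region's mean was taken out these were 0.22 and -0.060, and for Crym and Nrgn 0.79 became -0.58. The likeness of these genes across arrays was thus one of regions. Among 9008 other genes, Camk2n1 (r = 0.94) and Lrrc8b (0.93) ran most like Thrb, Mmp17 (0.95) and Ptk2 (0.95) most like Nrgn, and Cracdl (0.97) and Celf5 (0.95) most like Crym. Kctd17 (0.89) and Otud5 (0.88) ran most like Thra, Aprt (0.89) and Vwa1 (0.87) most like Slco1c1, and Socs7 (0.88) and Cdk19 (0.85) most like Klf9.

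The wider hormone pathway was read from 5 lists. Among carriers and transporters, 1 of 6 tested genes rose in SDpcb and 1 fell, near the 28.3% of all genes called. Slco1a4, an organic anion transporter of brain vessels that also carries thyroid hormones, averaged 1325 ± 233 in SDpcb and 771 ± 375 in SD rats (SD over 6 regions), a difference of 0.87 ± 0.17 (adjusted p = 5.55e-04). Slc3a2, the heavy chain of amino acid transporters that also carry the hormone, averaged 494 ± 100.5 in SDpcb and 637 ± 78.8 in SD (-0.38 ± 0.11, adjusted p = 0.0131). In SHR against WKY, 3 of 6 rose and 0 fell, where 20.7% of all genes rose, with Slco1a4 at 1.27 ± 0.17 and Slc3a2 at 0.62 ± 0.11 beside Slco1c1. Endothelial markers rose in both comparisons as well, 4 of 7 in SDpcb and 6 of 7 in SHR (14.8% and 20.7% of all genes). Their part in the Slco1a4 differences was not tested.
None of 3 tested genes of deiodination and selenoprotein synthesis was called by limma in SDpcb minus SD (0 with an unadjusted p under 0.05) or in SHR minus WKY (1 with one). Their smallest p-values were those of Sephs2, a selenophosphate synthetase (0.21 ± 0.11 in SDpcb minus SD and 0.24 ± 0.11 in SHR minus WKY), and Secisbp2, which binds the selenocysteine element of such mRNAs (-0.36 ± 0.19 and 0.35 ± 0.19). Of 5 receptors and partners, 0 were called in SDpcb (1 with an unadjusted p under 0.05), where 28.3% of all genes were called. There Nr1d1 had 0.40 ± 0.19 and Rxrb 0.31 ± 0.15. Without the SDpcb substantia nigra/VTA array Rxrb and Sephs2 were called higher in SDpcb. In SHR 2 of the 5 rose, where 20.7% of all genes rose. These were Rxrb, a retinoid X receptor that pairs with the hormone receptors (0.58 ± 0.15), and Nr1d1, a clock repressor encoded opposite Thra (0.56 ± 0.19). The Nr1d1 call ended without the WKY prefrontal cortex array.
Among 11 corepressors and coactivators, 1 rose in SDpcb and 2 fell, near the 28.3% of all genes called. The histone acetyltransferase Ep300 averaged 1086 ± 282 in SDpcb and 1836 ± 401 in SD rats (-0.77 ± 0.16, adjusted p = 8.78e-04), and the coactivator Ncoa3 averaged 133 ± 50.8 and 315 ± 56.7 in the same order (-1.29 ± 0.27, adjusted p = 9.09e-04). Hdac3, the deacetylase of the corepressor complex, was higher (0.39 ± 0.14). In SHR 1 rose and 4 fell, against 20.7% and 13.0% of all genes, among them Crebbp (-0.58 ± 0.11), Ep300 (-0.73 ± 0.16) and the corepressor Ncor1 (-0.42 ± 0.099), while Tbl1x, a subunit of the corepressor complex, rose (0.63 ± 0.17).
Of 16 tested genes known to respond to thyroid hormone in brain, Klf9 and Nrgn included, 0 rose and 3 fell in SDpcb, where 14.8% of all genes rose and 13.5% fell. Their median was -0.30, against 0.0032 over all genes. Reln, the layering signal of cortex and cerebellum, averaged 1211 ± 899 in SDpcb and 2727 ± 3039.6 in SD rats (-0.995 ± 0.177, adjusted p = 2.07e-04). The myelin gene Mbp averaged 14766 ± 2966 and 20979 ± 2744 in the same order (-0.52 ± 0.11, adjusted p = 0.00116), and Thrsp, a regulator of fat synthesis, averaged 261 ± 102 and 387 ± 151 (-0.58 ± 0.20, adjusted p = 0.0293). All 3 were lower in 6 of 6 regions. Mbp was also lower in WKY than in SD rats (-0.48 ± 0.11, adjusted p = 0.00421 in limma). Reln and Thrsp were not called in WKY minus SD (0.24 ± 0.18 and 0.097 ± 0.198). Beside Mbp, 3 of 8 oligodendrocyte markers were lower and 1 higher in SDpcb (13.5% and 14.8% of all genes). Their summed signal was 27398 to 50501 in SDpcb and 34966 to 78277 in SD rats, and their part in the Mbp difference was not tested.
In SHR against WKY, 5 of these 16 rose and 0 fell, near the 33.7% of all genes called, with a median of 0.31 against 0.11 over all genes. Without the WKY prefrontal cortex array 2 of 16 rose, Ptgds and Rasd2, where 25.5% of all genes were called. With all arrays the 5 were Ptgds, a prostaglandin synthase of meninges and choroid plexus (1.52 ± 0.21), Mag, a myelin adhesion protein (0.79 ± 0.27), the striatal small GTPase Rasd2 (0.49 ± 0.14), the clock factor Dbp (0.42 ± 0.14) and Klf9. Beside Ptgds, 6 of 7 meningeal markers, Ptgds among them, rose in SHR, where 20.7% of all genes rose. The summed signal of 8 meningeal markers ran from 3919 to 19141 in SHR and from 2193 to 7070 in WKY, with none at 0. That sum includes Ptgds, which averaged 10308 in SHR and 3444 in WKY, so it largely repeats the Ptgds rise. The part of the other markers in that rise was not tested.

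**Figure D4:**
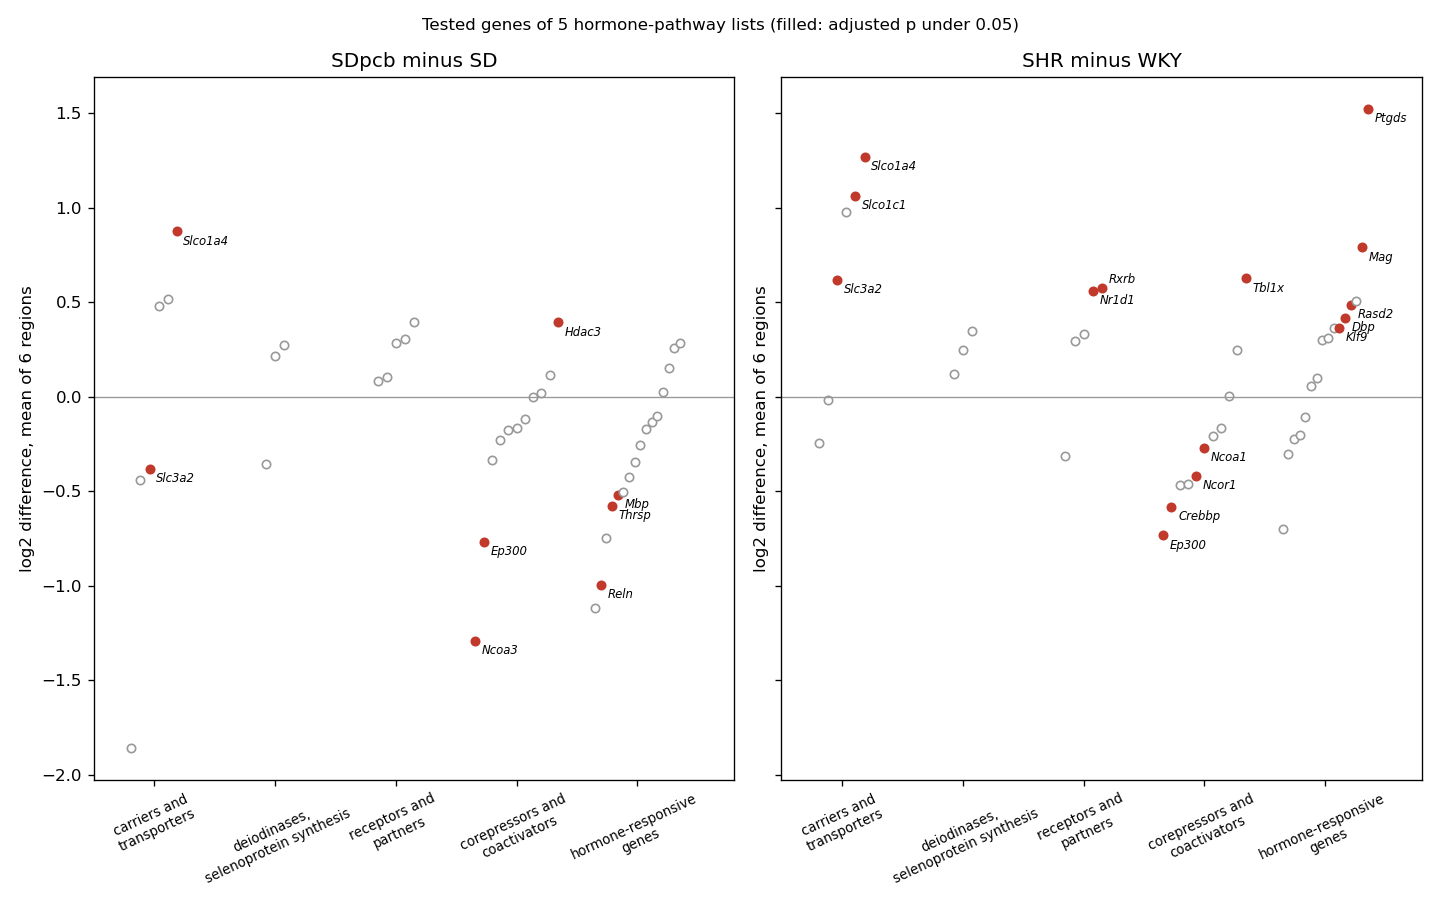
Log2 difference (mean of 6 regions) of each tested gene of 5 hormone-pathway lists, for SDpcb minus SD (left) and SHR minus WKY (right); filled, named points had an adjusted p under 0.05. Of the hormone-responsive genes, 3 of 16 fell and 0 rose in SDpcb, where 28.3% of all genes were called. In SHR 5 of 16 rose and 0 fell, where 33.7% were called. Tested gene by gene, the difference of the models was lower in 4 of the 16 and higher in 0, against 23.0% and 16.8% of all genes. The list as a set was not tested.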

How the data were processed

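The 24 arrays were Affymetrix Rat RAE 230 2.0 GeneChips. Values in the deposited table are probe set intensities, MAS5 signals per the submitters' processing notes (version not given in the sources used here); RNA was purified on RNeasy columns and labelled with the Ovation kit, per the labels' protocols. Each array has a trimmed mean near 500.2 (lowest 500.15). Detection calls and scan dates are not used here, so which signals lie at background is not known. The number of arrays also limits the precision. Of 31099 probe sets, 57 controls were set aside. The platform table, which can be old, gave 1 symbol to 20826 probe sets, several to 436 and none to 9780.

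Signals were taken as log2(signal + 1). The 15521 probe sets at or above the median mean (signal 116) were fitted in limma 3.58.1 (R 4.3.3) with terms for region and strain group (residual degrees of freedom 15), moderated with a trend, two-sided, and adjusted by Benjamini-Hochberg. The striatum term had 12 residual degrees of freedom. The fit was checked on simulated data. Alternatives covered scaling, pseudocount, filter, moderation, array weights, array median, probe set choice, and leaving out each region. All 8 genes are named, with up to 4 called genes per pathway list and comparison, or the 2 with the smallest p. The genes, lists and tests were chosen with earlier results of these data known.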

Additional observations from a re-analysis of the deposited data

Results flagged for a closer look

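Dixon's ratio marked 3 of 72 groups of values; chance marks about 1 in 20. Thrb in SHR minus WKY was 0.77 in vermis, against -0.78 to -0.34 in the other 5 regions. The Slco1c1 signal of hippocampus was 784 in WKY, against 1406 to 1499.8 in the other 3 strain groups. Crym in SDpcb minus SD was 2.09 in vermis, against -0.20 to 0.65 in the other 5 regions. The test of the difference between the models marked Klf9, whose SDpcb minus SD difference was below its SHR minus WKY difference by 0.62 on the log2 scale (-0.62 as coded).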

How the results depend on the processing

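The calls on these genes depended on the scaling. Centring each array on its median called 5 of 6 genes in SDpcb minus SD, 3 in WKY minus SD and 3 in the difference of the models, where 74.3%, 56.3% and 69.5% of all probe sets were called. There Klf9 turned to 0.47 (SDpcb minus SD), 0.12 (WKY minus SD) and 0.44 (difference of the models), Nrgn to 0.30 (SDpcb minus SD) and Thra to -0.0070 (SHR minus WKY). Quantile and cyclic loess normalization each called 2 genes in the difference of the models, beside 32.6% and 35.3% of all probe sets. They turned Thrb in SDpcb minus SD to -0.027 under both, and Nrgn in WKY minus SD to -0.027 and -0.059. The array median as a covariate follows the strain groups closely. With it, 1 gene was called in SHR minus WKY and 0 in the other 3 comparisons. Of all probe sets, 5.5% were called in SHR minus WKY and 0% in SDpcb minus SD. The shares were 0.477% in WKY minus SD and 0.0129% in the difference of the models. Under this setting Thrb turned to -0.33 (SDpcb minus SD) and Nrgn to -1.82 (WKY minus SD). Array weights called 4 genes in SHR minus WKY and 3 each in WKY minus SD and the difference of the models, beside 49.5%, 27.1% and 49.3% of all probe sets, and turned Nrgn in SDpcb minus SD to 0.034. Without the filter 1 gene was called in SDpcb minus SD (Slco1c1, adjusted p = 0.0391), beside 35.7% of all probe sets. Without the trend 1 was called in SHR minus WKY, beside 30.8%. At an adjusted p under 0.1 there was 1 in SDpcb minus SD and 4 in SHR minus WKY, beside 39.4% and 40.9%. The mean of all tested probe sets turned Thra in SDpcb minus SD (-0.017) and in WKY minus SD (-0.040) and Thrb in SDpcb minus SD (-0.067). The cause was not tested for any of these. Leaving out 1 region at a time, the count ran from 0 to 1 in SDpcb minus SD and from 1 to 3 in SHR minus WKY. It ran from 0 to 2 in WKY minus SD and from 0 to 3 in the difference of the models. The share of all probe sets called moved too, lowest without ventral striatum and highest without vermis. It ran from 23.2% to 33.9% in SDpcb minus SD and from 20.7% to 36.7% in SHR minus WKY. In WKY minus SD it ran from 10.7% to 19.97%, and in the difference of the models from 30.03% to 45.4%. Over these omissions of a region, Nrgn ran from -0.76 to 0.21 in SDpcb minus SD and from -0.14 to 0.35 in WKY minus SD. Crym ran from -0.082 to 0.60 in WKY minus SD. Settings chosen after seeing the data left out single arrays. Without the SDpcb substantia nigra/VTA array 1 gene was called in SDpcb minus SD, beside 29.2% of all probe sets. Without the WKY prefrontal cortex array 1 was called in SHR minus WKY and 0 in WKY minus SD, beside 24.2% and 14.0%. Without the SHR and SDpcb substantia nigra/VTA arrays 1 was called in each of SDpcb minus SD and SHR minus WKY, beside 28.2% and 28.7%. The Slco1c1 call in SHR minus WKY held its side of the threshold in 20 of 21 alternatives and missed it with the array median as a covariate (adjusted p = 0.0855). The 14 regional calls were between 12 and 15 under every alternative run, leaving out each strain group included. Arrays were paired by region in every fit, since the labels give a region and no replicate number.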
